A study of Mus musculus with 2 samples.

Results

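The family of miR-34 and miR-449 consists of 6 microRNA hairpins in the mouse annotation used here, Mir34a, Mir34b, Mir34c, Mir449a, Mir449b and Mir449c, and its reads were followed in whole hearts. The members were chosen by gene symbol in GENCODE M21 and matched by Ensembl identifier, and all 6 of 6 were among the 2202 hairpins counted. The hearts came from female B6CASTF1/J mice, the F1 hybrid of C57BL/6J and CAST/EiJ, aged 25 days by the age label, while a free-text label attaches another time unit to that number. Both libraries, replicate 1 and replicate 2, belong to 1 untreated group described only by strain, sex, age and tissue. The descriptions number the animals separately although both carry the same donor identifier, so the errors below, SD with n = 2, measure the spread between these libraries. Small RNA sequencing reads short fragments. A hairpin is a precursor that folds back on itself and is cut into a mature microRNA from 1 or both of its arms. The tables do not separate the arms, and no second group was analysed here.

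A mature microRNA guides Argonaute proteins to messenger RNAs mainly through its seed, bases 2 to 8 counted from the 5′ end, so microRNAs with the same seed can repress overlapping sets of targets. The miR-34 genes are known as transcriptional targets of the tumour suppressor p53 and restrain the cell cycle and survival genes, and miR-34a is known in the mouse heart for rising with age and after infarction. Mir34b, Mir34c and the Mir449 cluster are known for their high levels in multiciliated epithelium and in the testis, where they act redundantly in the formation of motile cilia and of sperm.

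The shared seed is what joins the family, so the 5′ arm sequences are shown first, from RefSeq on GRCm38.p6, with bases 2 to 8 in capitals. RefSeq sequences were matched for 5 of 6 members, with 9 mature arms; Mir449b and the arm miR-34c-5p are not among them. In 4 of these arms bases 2 to 8 read GGCAGUG, and none of the other annotated mature sequences, of 1738 in all, carries it there.
miR-34a-5p, chr4:150068473-150068494, plus strand: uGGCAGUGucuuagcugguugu
miR-34b-5p, chr9:51103610-51103632, minus strand: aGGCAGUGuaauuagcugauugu
miR-449a-5p, chr13:113037549-113037570, plus strand: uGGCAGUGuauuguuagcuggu
miR-449c-5p, chr13:113036008-113036028, plus strand: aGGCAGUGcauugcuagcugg
Outside the seed the arms differ in places but also share further bases. Over the whole arm, seed included, the longest run shared by any 2 of these 5′ arms is 9 nt. For miR-34a-5p with miR-449a-5p a run of that length lies wholly outside the seed. The closest pairs, miR-34a-5p with miR-34b-5p and miR-449a-5p with miR-449c-5p, lie 4 single-base edits apart.

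The 3′ arms did not share 1 seed across the family. That of miR-34b-3p and miR-34c-3p was the same, and both are shown with bases 2 to 8 in capitals.
miR-34b-3p, chr9:51103574-51103595, minus strand: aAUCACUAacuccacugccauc
miR-34c-3p, chr9:51103044-51103065, minus strand: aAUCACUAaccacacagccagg
The arms miR-34a-3p, miR-449a-3p and miR-449c-3p each had a seed of their own. None of the 5 seeds found among the 9 arms occurred at bases 2 to 8 of another mature microRNA in the RefSeq set used.

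The 3 hairpins that held nearly all the reads are shown whole, with the single copy of GGCAGUG that each contains in capitals.
Mir34a, chr4:150068454-150068555, plus strand: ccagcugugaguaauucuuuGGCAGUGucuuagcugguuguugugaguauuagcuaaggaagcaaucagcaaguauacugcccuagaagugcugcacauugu
Mir34c, chr9:51103034-51103110, minus strand: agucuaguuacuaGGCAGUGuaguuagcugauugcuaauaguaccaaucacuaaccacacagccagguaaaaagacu
Mir449a, chr13:113037534-113037624, plus strand: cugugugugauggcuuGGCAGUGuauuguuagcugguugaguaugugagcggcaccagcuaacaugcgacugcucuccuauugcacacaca
The predicted folding energy (RNAfold 2.7.2) was lowest for Mir449a at -48.9 kcal/mol per 100 nt, against -41.8 for Mir34a and -38.7 for Mir34c.

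The 6 hairpins lie at 3 loci of mm10. Mir34a stands alone on chromosome 4, with no other annotated hairpin within 10 kb, and overlaps an exon of Gm37795, an unverified transcript (biotype TEC) on the same strand. Mir34b (chromosome 9, 51103562 to 51103645) and Mir34c are 451 nt apart, within an intron of Btg4 but on the opposite strand from that gene, which is known for clearing maternal messenger RNA in the oocyte and early embryo. Mir449c (chromosome 13, 113035983 to 113036091), Mir449b (113037419 to 113037498) and Mir449a lie in introns of Cdc20b on its strand, with 1327 nt between Mir449c and Mir449b and 35 nt between Mir449b and Mir449a. In all 5 of these hairpins the overlap was intronic in every annotated transcript there.

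Replicate 1 held 2050498 hairpin counts and replicate 2 held 2661090, which were 41.0% and 41.2% of the reads listed. Reads that matched several places, 38.5% and 41.6% of the libraries, enter no hairpin count. MicroRNAs whose sequence occurs at several places lose such reads, so levels, ranks and shares here hold among counted reads only. Each of the 9 mature sequences, which do not cover Mir449b or miR-34c-5p, occurred in the transcripts of only 1 gene in GENCODE M21, its own, on either strand. The genome outside annotated transcripts was not searched, so copies there would not have been found. No member hairpin with a RefSeq sequence shared a run longer than 14 nt with any of the other 2201 hairpins. All member counts stood on the strand of the hairpin, with 0 on the opposite strand in both libraries. The heart muscle microRNAs checked the tissue label. Mir208a had 1620 CPM in replicate 1 and 5862 CPM in replicate 2, Mir499 had 2629 and 2317 CPM, and Mir208b had 191 and 112 CPM, where CPM is the count per 1000000 hairpin counts of that library.

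Mir34a carried almost the whole family in both libraries. It had 5888 counts in replicate 1, or 2872 CPM (95% exact interval 2799 to 2946). In replicate 2 it had 3354 counts, or 1260 CPM (1218 to 1304). Its level by counted reads ranked 37 in replicate 1 and 54 in replicate 2 among the 2202 hairpins, with a mean of 2066 ± 1139 CPM. Hairpins that lose reads matching several places can rank below it for that reason. The counting intervals of the 2 libraries do not overlap.

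Of the ciliated-cell members, Mir34c and Mir449a had low but countable levels. Mir34c had 39 counts in replicate 1, or 19.0 CPM (13.5 to 26.0), and 140 in replicate 2, or 52.6 CPM (44.3 to 62.1). Mir449a had 73 counts in replicate 1, or 35.6 CPM (27.9 to 44.8), and 72 in replicate 2, or 27.1 CPM (21.2 to 34.1). Mir449a was the higher of this pair in replicate 1 and Mir34c in replicate 2. Their means, 35.8 ± 23.8 CPM for Mir34c and 31.3 ± 6.04 CPM for Mir449a, did not differ beyond the spread between the libraries. In these bulk samples fewer cells of a type and less RNA per cell cannot be told apart.

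The remaining members were at or under the limit that 3 counts set, 1.46 CPM in replicate 1 and 1.13 CPM in replicate 2. Mir34b had 2 counts in replicate 1 and 3 in replicate 2. Mir449c had 1 count in each library. Mir449b had 0 counts in both, which allows up to 0.000146% of the hairpin counts of replicate 1 and 0.000113% of those of replicate 2. The exact intervals of Mir34b and Mir449c overlap in both libraries, so their order is not resolved at this depth.

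**Figure D1:**
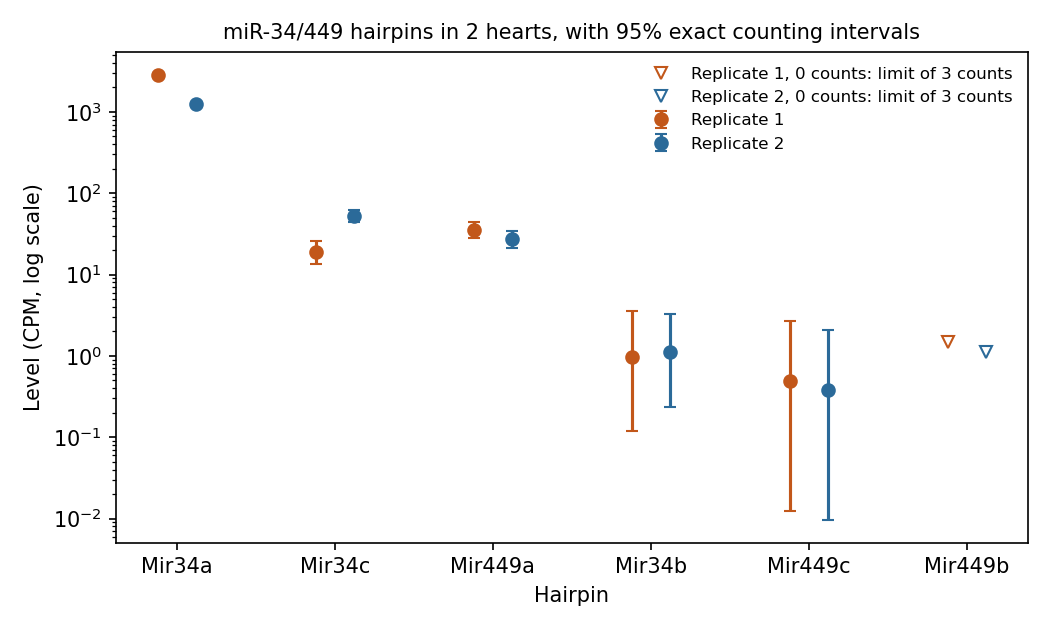
Level of each family hairpin in CPM on a log axis, with replicate 1 left of replicate 2, points for the measured level, bars for 95% exact counting intervals, and open triangles for the 3-count limit where no read was counted. Mir34a stands at 2872 and 1260 CPM, Mir34c and Mir449a lie between 19.0 and 52.6 CPM, and Mir34b, Mir449c and Mir449b lie at or below the limit.

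By the mean over the libraries the order was Mir34a, Mir34c, Mir449a, Mir34b, Mir449c and Mir449b. The lowest Mir34a value, 1260 CPM, lay above the highest Mir34c value, 52.6 CPM, and the lowest Mir449a value, 27.1 CPM, above the highest Mir34b value, 1.13 CPM. Within the pairs Mir34c with Mir449a and Mir34b with Mir449c the order was not resolved. Per 100 nt of annotated hairpin the order of the mean levels was the same, with 2025 ± 1117 CPM for Mir34a, 46.5 ± 30.8 CPM for Mir34c and 34.4 ± 6.64 CPM for Mir449a.

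Detection, taken as at least 10 counts in both libraries, was met by 3 of the 6 members, against 288 of the 2202 hairpins (13.1%). A count in either library was seen for 5 of 6 members and for 648 of all hairpins. The 288 detected hairpins had a median of the mean level of 94.2 CPM, so Mir34a stood above that median and Mir34c and Mir449a below it. Mir34c ranked 220 in replicate 1 and 166 in replicate 2, and Mir449a ranked 189 and 192.

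**Figure D2:**
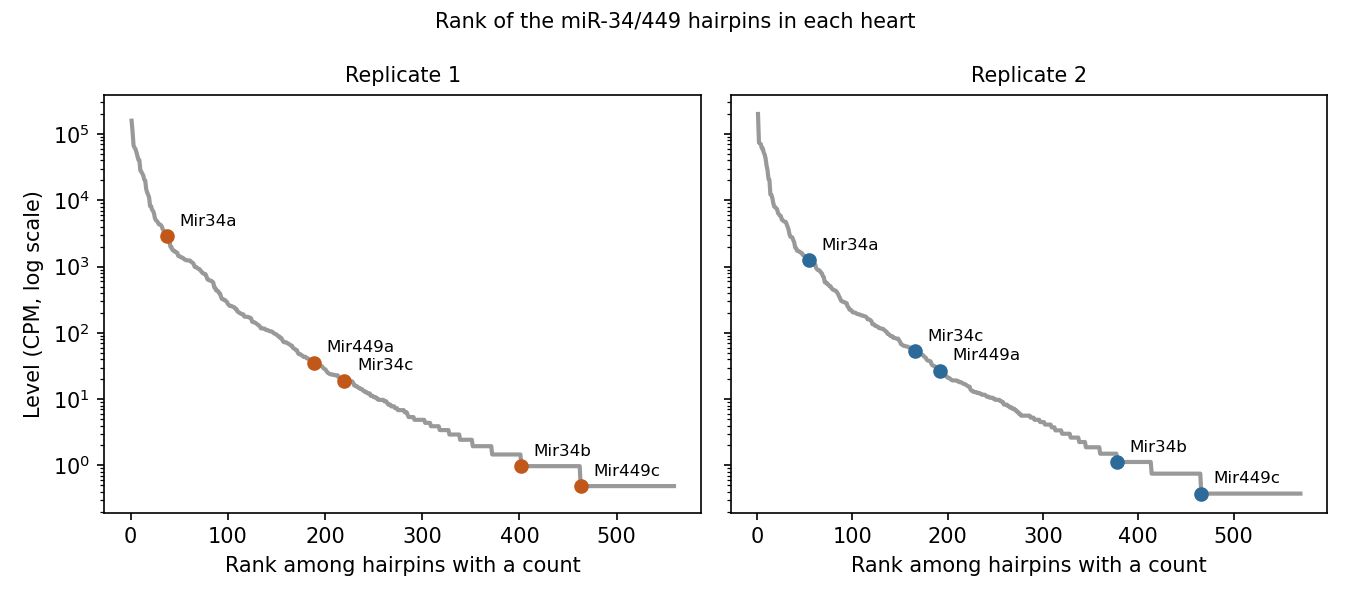
Level in CPM (log axis) against rank for every hairpin with a count, replicate 1 on the left and replicate 2 on the right, with family members as points on the grey curve of all hairpins. Mir34a is at rank 37 and 54, Mir34c and Mir449a change places between ranks 166 and 220, and Mir34b and Mir449c lie on the steps of single counts at the end.

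The family as a whole held 0.293% of the hairpin counts in replicate 1, with a 95% exact interval of 0.285 to 0.300. In replicate 2 it held 0.134%, with an interval of 0.130 to 0.139. The mean was 0.213% ± 0.112. Mir34a made up 98.1% of the family in replicate 1 (97.7 to 98.4) and 93.9% in replicate 2 (93.1 to 94.7). This split, which does not depend on how the libraries are scaled, differed between the libraries (two-sided Fisher's exact p = 1.21e-25). The test compares reads of these 2 libraries, and PCR copies were not told apart, so it says nothing of mice in general. The Mir34b and Mir34c pair made up 0.683% of the family in replicate 1 (0.491 to 0.925) and 4.01% in replicate 2 (3.39 to 4.70), and the Mir449 cluster 1.23% (0.969 to 1.55) and 2.04% (1.61 to 2.56). Counted reads of Mir34a outnumbered those of Mir34c 151 to 1 in replicate 1 and 24.0 to 1 in replicate 2.

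Each of the clusters was represented by 1 hairpin. Of the reads of the Mir34b and Mir34c pair, Mir34c had 39 of 41 in replicate 1, or 95.1% (95% exact interval 83.5 to 99.4), and 140 of 143 in replicate 2, or 97.9% (94.0 to 99.6). Of the Mir449 cluster, Mir449a had 73 of 74 reads in replicate 1, or 98.6% (92.7 to 99.97), and 72 of 73 in replicate 2, or 98.6% (92.6 to 99.97). Neighbouring hairpins 451 nt and 35 nt apart therefore differed in counted reads within the same library, Mir34c from Mir34b and Mir449a from Mir449b. These are counts of reads, with both arms of a hairpin summed, and Mir449b had no RefSeq sequence with which to check for matches elsewhere.

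The libraries were then compared, to ask whether the members varied together between these libraries of 1 strain, sex and age. Mir34a and Mir34c moved in opposite directions, and Mir449a did not pass the test. Ratios are of TMM-scaled CPM plus 1, replicate 1 over replicate 2, where TMM is edgeR's correction of library size, and each hairpin with at least 10 counts in 1 library was tested with an exact binomial test and Benjamini-Hochberg adjustment over all 326. The test is between the reads of 2 libraries, not between conditions. It called 204 of the 326 hairpins (62.6%), 86 higher (26.4%) and 118 lower (36.2%) in replicate 1. With scaling by total count the split was 117 higher and 76 lower, and without the 10 highest hairpins 97 and 87. The 3 members tested gave 2 calls, which is close to the share over all hairpins and no result about the family. Both of these calls also differed at least 1.5-fold, as did 128 of the 326 hairpins (39.3%), with 63 higher (19.3%) and 65 lower (19.9%) in replicate 1.

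Mir34a was higher in replicate 1, with 2651 TMM-scaled CPM in replicate 1 and 1365 in replicate 2 (log2 ratio 0.96, counting interval 0.90 to 1.02, adjusted exact binomial p = 1.17e-214). Its difference was larger than that of 71.2% of the tested hairpins and ranked 94 of 326. Mir34c was lower in replicate 1, with 17.6 TMM-scaled CPM in replicate 1 and 57.0 in replicate 2 (log2 ratio -1.64, adjusted exact binomial p = 6.29e-12). The counting interval of its ratio without the added CPM ran from -2.25 to -1.18, and its difference ranked 38 of 326. Mir449a had 32.9 and 29.3 TMM-scaled CPM (log2 ratio 0.16, counting interval -0.32 to 0.66, adjusted exact binomial p = 0.594). That interval leaves room for a difference in either direction.

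The biological coefficient of variation over the tested hairpins, edgeR's name for the spread between the libraries beyond counting error, was 0.467. The median size of the log2 ratio over the tested hairpins was 0.56, and that of Mir449a lay under it while those of Mir34a and Mir34c lay above it. With total counts in place of TMM, the median log2 ratio of the tested hairpins was 0.14, against -0.09 with TMM. Relative to that median, Mir34a stood at 1.04 with TMM and 1.05 by total count, and Mir34c at -1.56 with both.

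**Figure D3:**
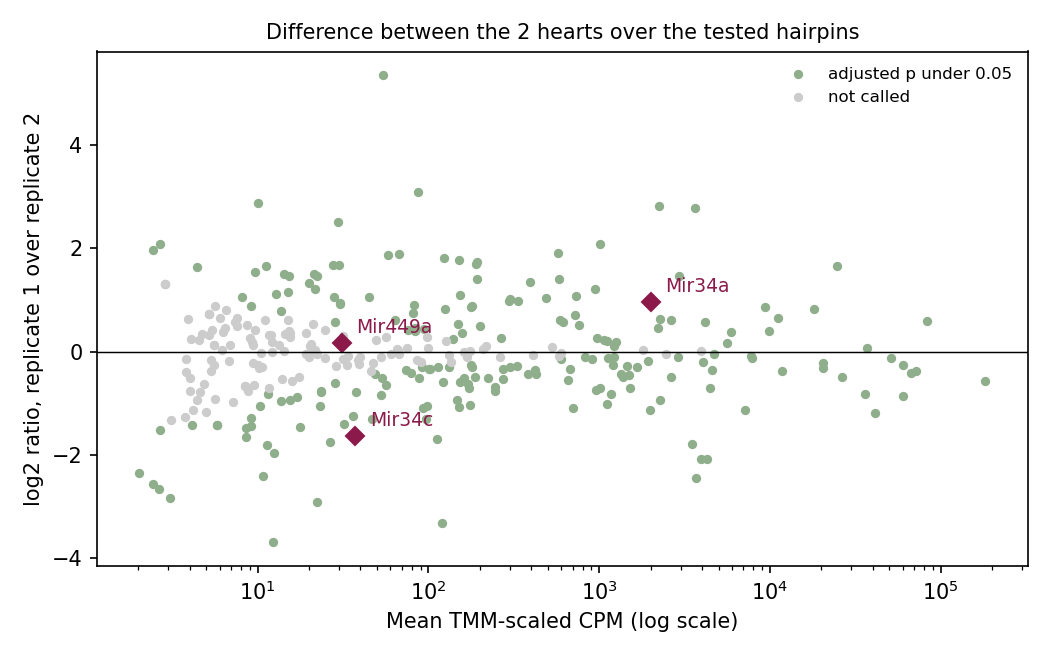
Log2 ratio of replicate 1 over replicate 2 against the mean TMM-scaled CPM (log axis) for the 326 tested hairpins, green where the adjusted exact binomial p was under 0.05 and grey otherwise, with the 3 tested family members as diamonds. Mir34a at 0.96 and Mir34c at -1.64 lie on opposite sides of 0 inside the cloud of all hairpins, and Mir449a lies at 0.16.

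Markers of other cell types were read beside the members. The 5 ciliated-cell members summed to 56.1 CPM in replicate 1 and 81.2 CPM in replicate 2, with Mir449b at 0. The list of 8 epithelial microRNAs summed to 408 CPM in replicate 1 and 382 CPM in replicate 2, with 5 of 8 detected and 0 of 8 at 0 in both libraries. Of its 7 tested hairpins, 2 were higher and 3 lower in replicate 1, near the 26.4% higher and 36.2% lower over all 326 and so no result about the list. Mir203, a microRNA of skin and other stratified epithelium, was lower like Mir34c, with 117 counts in replicate 1 and 424 in replicate 2, whereas Mir205 went the other way with 238 and 4. Mir200c, the highest of the list, had 361 and 478 counts. The part of epithelial cells in the Mir34c and Mir449a counts was not tested.

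Markers of male germ cells had low counts in these female hearts. Of 14 hairpins of the X-linked testis cluster and Mir202, none was detected, beside 288 of 2202 hairpins (13.1%) over the whole tables. In this list 7 of 14 had 0 counts in both libraries, beside 1554 of 2202 over all hairpins, so these counts set the list apart in neither way. The list summed to 15 counts in replicate 1 and 16 in replicate 2. Mir470 was its highest with 8 counts in each library, followed by Mir741 and Mir743 with 2 in each. Mir202 was among those at 0. The part of germ cells in the Mir34c and Mir449a counts was not tested.

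The level of Mir34a can be set beside those of marker hairpins of the main cell types of the heart. The heart muscle list leaves out miR-1 and miR-133, so it does not give the whole level of heart muscle microRNAs. The heart muscle list of 3 hairpins summed to 4440 CPM in replicate 1 and 8291 CPM in replicate 2, and its members differed: Mir208a was lower in replicate 1 (log2 ratio -2.08), Mir208b was higher (0.54), and Mir499 was not called (-0.05). Mir34a had 1.77 times the counts of Mir208a in replicate 1 and 0.215 times in replicate 2, a ratio that holds for Mir208a alone. Mir126a, the endothelial microRNA, had 108082 and 60950 CPM and was higher in replicate 1, as was Mir34a. The smooth muscle microRNAs Mir143 and Mir145a were both lower in replicate 1, with 28118 and 42505 CPM for Mir143 and 1236 and 5782 CPM for Mir145a. The part of any cell type in the difference of Mir34a was not tested.

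Other microRNAs linked to p53, mostly from work in human cells, included hairpins called in each direction between the libraries. Of the 9 in the list, 8 were in the tables and all 8 were detected. In replicate 1, 4 were higher, 3 were lower and 1 was not called, where 26.4% were higher, 36.2% lower and 62.6% called over all 326 hairpins. The list had a median log2 ratio of 0.91 beside -0.09 over all 326 hairpins. Mir215 had 113 counts in replicate 1 and 20 in replicate 2, and Mir192 had 68 and 31. Mir194-2 had 48 and 17 counts, and Mir16-1 had 1892 and 783. The lower ones were Mir107 with 1873 and 3683 counts and the smooth muscle pair Mir143 and Mir145a, which this list shares with the smooth muscle list. Mir192 with Mir194-2 and Mir215 with Mir194-1 are known to be made from shared primary transcripts, so their counts are not independent. Mir16-1, Mir194-1 and Mir194-2 are numbered loci of repeated microRNA genes, and reads that match more than 1 locus enter none of these counts. The part of p53 in the difference of Mir34a was not tested.

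**Figure D4:**
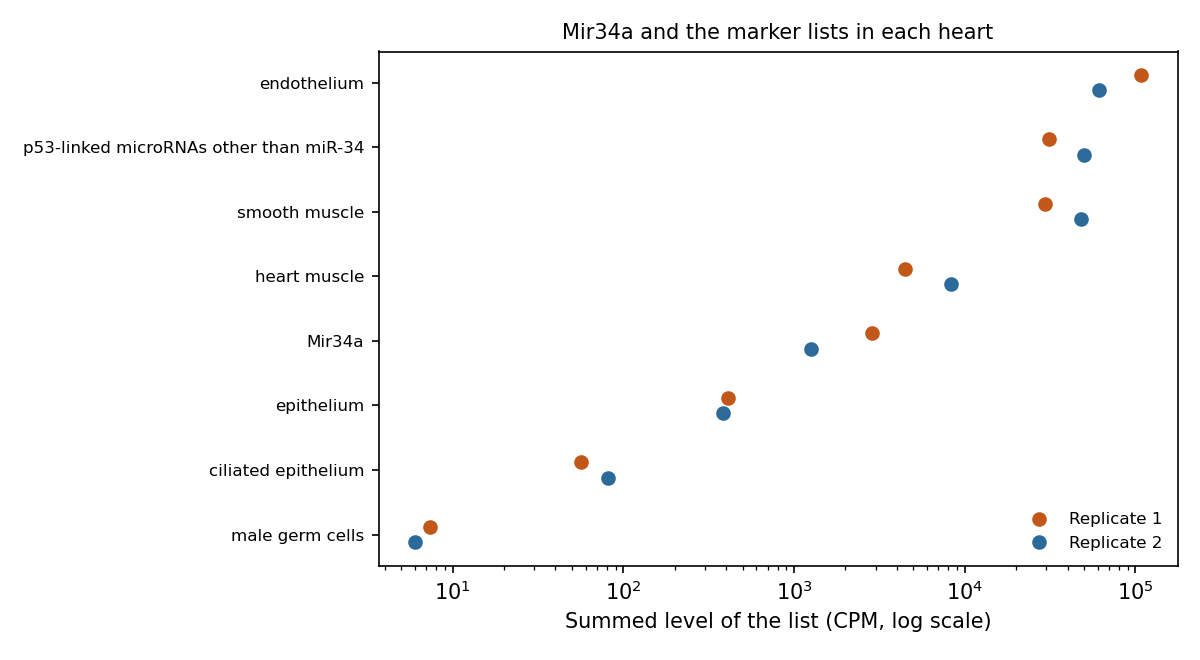
Summed level in CPM (log axis) of Mir34a and of each marker list, with replicate 1 above replicate 2 in each row. The ciliated epithelium list at 56.1 and 81.2 CPM lies between the male germ cell list and the epithelium list at 408 and 382 CPM, and Mir34a lies between the epithelium and heart muscle lists. The lists are selections and do not give the whole level of a cell type.

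The hairpins nearest to the members in level were found by the distance of log2(CPM + 1) over the 2 libraries. Mir155, a microRNA of activated immune cells, was nearest to Mir34a, at 2981 CPM in replicate 1 and 1632 CPM in replicate 2 (distance 0.38), followed by Mir320 at 2778 and 1733 CPM and Mir92-1 at 1985 and 1646 CPM. Mir92-1 is a numbered locus of a repeated gene, so its count leaves out reads that match more than 1 place. Mir34c was nearest to Mir669l, a hairpin of the Sfmbt2 intron, with 38 and 115 counts, then to n-TSaga9 with 47 and 127 and Mir5099 with 59 and 165. The symbol n-TSaga9 is that of a transfer RNA gene, although it is counted here among the hairpins. Mir449a was nearest to Mir1198, Mir326 and Mir485, at distances of 0.11, 0.22 and 0.23. With 2 libraries such likeness describes level alone.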

How the data were processed

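Each deposited table gives unnormalized read counts for every annotated hairpin, in 1 column for either strand, 1 for the strand of the hairpin and 1 for the opposite strand. The authors placed reads on mm10 with GENCODE annotation M21, per the file headers of the deposited text notes. The programs that aligned and counted them are not given in the sources used here. Counts on the strand of the hairpin were used, and rows naming no hairpin stayed out of library totals. All 2202 identifiers matched GENCODE M21. Libraries were grouped by source label, tissue heart, and numbered by the biological replicate label.

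CPM was the count over the summed hairpin counts. Intervals are 95% exact (Clopper-Pearson) and, like the floor of 3 counts, cover counting error only, because PCR copies were not told apart. Libraries were compared over hairpins with at least 10 counts in 1 of them, using edgeR 4.0.16 (R 4.3.3) for TMM factors and exact two-sided binomial tests in SciPy 1.17.1 with Benjamini-Hochberg adjustment, called at 0.05, with a pseudocount of 1 CPM for log2 ratios. Alternatives were other columns, totals, scalings (DESeq2 1.42.0), count minimums and pseudocounts.

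The members and lists were chosen with earlier results of these data known. Hairpins named were the members, up to 3 of the highest of each list, and the 3 nearest in level to each detected member. Mir215, Mir192, Mir194-2, Mir16-1, Mir194-1 and the mention of Mir202 were added after their values were seen.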

Additional observations from a re-analysis of the deposited data

Results flagged for a closer look

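Reads that matched several places numbered 1925044 in replicate 1 and 2686901 in replicate 2. They lie outside the hairpin counts and were listed because they exceed the limit of 3 counts, which does not make them unusual. No read on the opposite strand was counted at any of the 6 members.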

How the results depend on the processing

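The calls for Mir34a and Mir34c and the missing call for Mir449a were the same in all 8 alternatives run for each, which covered scaling, count minimums, pseudocounts, the column without regard to strand and leaving out the 10 highest hairpins. The log2 ratio ranged from 0.96 to 1.19 for Mir34a, from -1.67 to -1.42 for Mir34c (adjusted exact binomial p from 6.29e-12 to 4.58e-09) and from 0.14 to 0.38 for Mir449a (adjusted exact binomial p from 0.160 to 0.594). The hairpins called numbered 165 to 204.

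Levels depend on the total they are divided by. The family share was 0.0876% over all reads listed and 0.658% without the 10 highest hairpins, where the smaller or larger total alone moves the value. The column without regard to strand gave 0.303%. Its member counts were the same, but its hairpin totals were smaller, 1440901 in replicate 1 and 1892750 in replicate 2. Without 1 replicate the family share ranged from 0.134% to 0.293% and the Mir34a share of the family from 93.9% to 98.1%. The 3 members detected were also 3 at a minimum of 5 counts and were 2 at 50 counts, where Mir34c in replicate 1 falls short. No paired analysis was possible because both libraries belong to 1 group. Depth limits Mir34b, Mir449b and Mir449c, whose counts of 0 to 3 give no order.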
